A study of Rattus norvegicus with 10 samples.

Results

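The livers of rats given sulfur mustard (SM) and then MSTF were compared directly with the livers of rats given SM alone. The comparison took 7 of the 10 arrays of the series, which were the arrays labelled SM + MSTF (3 rats) and SM (4 rats), and the probes detected well above background throughout 1 or both of these groups. All animals were male Sprague Dawley rats, an outbred stock, and each array held the liver RNA of 1 rat taken 24 h after exposure. SM rats received 3.5 mg/kg of SM by subcutaneous injection, SM + MSTF rats received the same injection and 120 mg/kg of MSTF by stomach tube 1 h later, and the control rats (3 arrays) received the propylene glycol vehicle. MSTF is a mixture of the salvianolic acids of Salvia miltiorrhiza and the total flavonoids of Anemarrhena asphodeloides. No group received MSTF without SM. The comparison asks which liver genes differed once MSTF had been given, including genes that SM itself had not moved from the control level.

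SM is an alkylating agent that binds DNA and protein in many tissues. The liver burns fatty acids in its mitochondria and peroxisomes and oxidises them at their far end through the cytochrome P450 enzymes of the 4A family, which are known targets of the lipid-sensing receptor PPAR alpha. It also secretes hepcidin and the plasma proteins of the acute phase, runs a circadian clock that times much of its metabolism, and houses Kupffer cells and natural killer cells beside the hepatocytes.

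The arrays were 1-colour Agilent whole genome arrays, and every value below is a log2 signal after quantile normalization over the 10 arrays unless another scale is named. The share of the 41012 probes that was well above background lay between 51.9% and 58.6% in the controls, between 57.3% and 61.4% in SM and between 53.4% and 57.9% in SM + MSTF. The 4 SM arrays were alone on slide 2, SM + MSTF replicates 1 and 2 were alone on slide 3, and SM + MSTF replicate 3 shared slide 1 with the controls. No slide held both SM and SM + MSTF, so SM and its slide cannot be told apart in any value below. Over the tested probes the 7 arrays lay further apart between than within the groups (mean distance 0.542 between and 0.460 within on the log2 scale, difference 0.0814, exact one-sided permutation p = 0.0286, the smallest that 35 labelings allow). The tested probes include those that passed the filter in 1 group only, and over the probes well above background on all 7 arrays the difference was 0.0476 (exact one-sided permutation p = 0.0571).

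In the SM + MSTF livers, few genes rose and a larger number fell against SM. Of 22824 probes tested, 290 (1.27%) passed an adjusted p of 0.05 by limma with at least 1.5-fold change, of which 71 were higher (0.311%) and 219 lower (0.96%). An unadjusted p under 0.05 was found for 3642 probes. Among the 9139 named genes tested, read from their brightest probe, 16 were called higher (0.175%) and 82 lower (0.897%), and the median log2 difference was -0.02. Actb and Gapdh, which serve as reference genes, differed by -0.11 and -0.17 and were not called by limma (adjusted p = 0.79 and 0.542).

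The called probes lay mostly among the dim ones. The tested probes were ranked by signal and split into 4 groups of 5706. From the dimmest group to the brightest, 2.82% (48 higher, 113 lower), 1.42% (5 higher, 76 lower), 0.613% (7 higher, 28 lower) and 0.228% (11 higher, 2 lower) were called. The brightest group held mainly rises, and the other groups mainly falls.

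**Figure D1:**
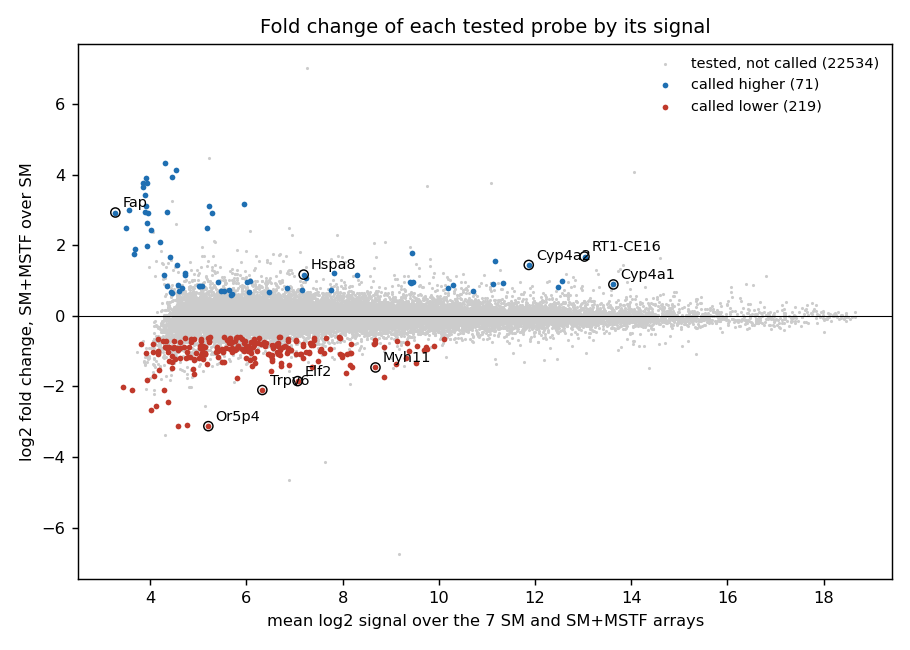
Log2 fold change of SM + MSTF over SM (vertical axis) against the mean log2 signal over the 7 arrays (horizontal axis), 1 point for each of the 22824 tested probes. Grey points were not called, blue points are the 71 probes called higher and red points the 219 called lower, and black circles mark the genes named in the plot. Called falls cluster at low signal, and the bright called probes are nearly all rises such as Cyp4a1 and RT1-CE16.

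The count rested on single rats. It was 96 without SM replicate 1, 113 without SM replicate 3, 106 without SM + MSTF replicate 1 and 174 without SM + MSTF replicate 2, and between 223 and 292 when any other array was left out. A fit on the 7 arrays alone gave 155 calls, and a fit with the slide as a random block gave 100. In the same fit 521 probes (2.28%) were called when SM was set against control and 0 (0%) when SM + MSTF was set against control, where 2160 probes had an unadjusted p under 0.05. These comparisons share arrays with SM + MSTF versus SM, so their values are set beside it below as descriptions.

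Fatty acid hydroxylases of the cytochrome P450 4A family rose in SM + MSTF. Cyp4a2 read 11.53, 11.54, 10.87 and 11.06 on the SM arrays and 12.74, 12.13 and 13.21 on the SM + MSTF arrays, with controls at 10.77, 10.87 and 11.54. The SM and SM + MSTF arrays did not overlap, and the SM arrays overlapped the control range. Cyp4a2 rose 2.72-fold in SM + MSTF over SM (log2 1.44 ± 0.29 SE, limma adjusted p = 0.0455). Cyp4a1, another omega-hydroxylase of the family, read 13.29, 13.25, 13.34 and 13.12 in SM and 14.01, 13.79 and 14.61 in SM + MSTF, with controls at 13.22, 13.39 and 13.11. The 3 SM + MSTF arrays stood above all 7 others, and the rise was 1.85-fold (log2 0.89 ± 0.18 SE, limma adjusted p = 0.0443). The SM versus control difference of Cyp4a1 was 0.01 with a 95% interval of -0.39 to 0.40. Leaving out any of 8 of the 10 arrays ended each of these calls, with log2 differences between 1.18 and 1.72 for Cyp4a2 and between 0.65 and 1.06 for Cyp4a1 and limma adjusted p up to 0.128 and 0.108. The call of Cyp4a2 stayed only without control replicate 3 or SM + MSTF replicate 2, and that of Cyp4a1 only without SM + MSTF replicate 2 or 3.

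The other members of the family, chosen for naming after their values were seen, lay on the same side. Cyp4a8 was 1.32 higher (limma adjusted p = 0.0531) and Cyp4a3 0.83 higher (limma adjusted p = 0.178), and in both the SM + MSTF arrays were above every SM array. All 4 Cyp4a genes tested were higher, 2 of them called (background 0.175%), with a median of 1.11. Probes of this family may bind transcripts of its other members, so the 4 probes are not independent. Of the 38 cytochrome P450 genes tested, 25 were higher and 13 lower with a median of 0.11, and Cyp4a1 and Cyp4a2 were the only ones called.

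The upstream sequences of Cyp4a2 and Cyp4a3 are shown because they hold the motif searched for. Both lie on chromosome 5 and are alike over most of their length, so they are not independent. Each window is the 250 bases before the RefSeq gene start on build GRCr8, 5′ to 3′ on the gene's strand (minus for both), at chr5:134170909-134171158 for Cyp4a2 and chr5:134352237-134352486 for Cyp4a3. Capitals mark AGGTCA, the core motif of many nuclear receptors, searched on both strands.
Cyp4a2: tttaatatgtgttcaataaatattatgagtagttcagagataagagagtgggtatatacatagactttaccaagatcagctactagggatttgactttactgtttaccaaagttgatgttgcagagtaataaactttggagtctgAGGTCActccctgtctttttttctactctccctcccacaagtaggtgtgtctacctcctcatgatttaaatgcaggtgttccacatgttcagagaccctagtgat
Cyp4a3: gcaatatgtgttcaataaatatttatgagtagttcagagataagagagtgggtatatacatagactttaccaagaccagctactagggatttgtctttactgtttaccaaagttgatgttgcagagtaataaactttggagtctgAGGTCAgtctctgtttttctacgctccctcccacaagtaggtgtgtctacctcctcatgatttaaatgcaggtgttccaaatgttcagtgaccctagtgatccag
The motif lay at bases 105 to 100 before the start in both windows, and 14.1% of the 33469 RefSeq upstream windows of this length held it. The Cyp4a8 window, also on chromosome 5, and that of Angptl4, named below, held no copy of these letters, and no window was at hand for Cyp4a1. A match in these letters is a description of the sequence only.

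Genes of fatty acid breakdown leaned the same way with no call. Of 33 genes of fatty acid oxidation and ketogenesis tested, 26 were higher and 7 lower, 0 were called, 8 had an unadjusted p under 0.05 in the higher direction, and the median was 0.23 against -0.02 over all named genes. In 9 of the 33 every SM + MSTF array was above every SM array, where 5.16% of all named genes were so, and in 0 was every one below, where 8.25% of all named genes were so. Among members chosen after their values were seen, Angptl4, an inhibitor of lipoprotein lipase, read 10.72, 9.89, 10.22 and 10.90 in SM and 11.16, 12.02 and 11.62 in SM + MSTF, with controls at 11.05, 10.76 and 10.82. Its groups did not overlap, and its log2 difference was 1.17 ± 0.26 SE (limma adjusted p = 0.0687). Acot1, an acyl-CoA thioesterase, differed by 0.60 (limma adjusted p = 0.2), and Cpt1a, which admits fatty acids to the mitochondrion, by 0.65 with overlapping groups (limma adjusted p = 0.452). Ehhadh, a peroxisomal oxidation enzyme, differed by -0.13, and the brightest members Fabp1 and Acsl1 by -0.05 and -0.11.

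Genes of fatty acid synthesis were lower on 1 of the 3 SM + MSTF arrays. Scd, which makes monounsaturated fatty acids, read 14.68, 15.07, 14.54 and 15.72 in SM and 15.95, 14.39 and 10.23 in SM + MSTF, with controls at 15.07, 14.72 and 14.71. Acly, which supplies acetyl-CoA to the pathway, read 15.77, 14.98, 15.12 and 16.10 in SM and 15.38, 15.70 and 13.23 in SM + MSTF. In both, SM + MSTF replicate 3 was the lowest of all 10 arrays, and the other SM + MSTF arrays lay within or close to the SM range. The same held for Fasn (14.44, 14.85 and 12.05 in SM + MSTF) and Elovl6 (11.08, 10.77 and 7.97), chosen after their values were seen. Of 19 genes of this list, 18 were lower, 0 were called and the median was -0.65. The list median per array, taken against the SM mean, was 0.04, -0.06 and -1.67 on the SM + MSTF arrays and between -0.33 and 0.33 on the SM arrays, and without SM + MSTF replicate 3 the median difference was 0.01.

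**Figure D2:**
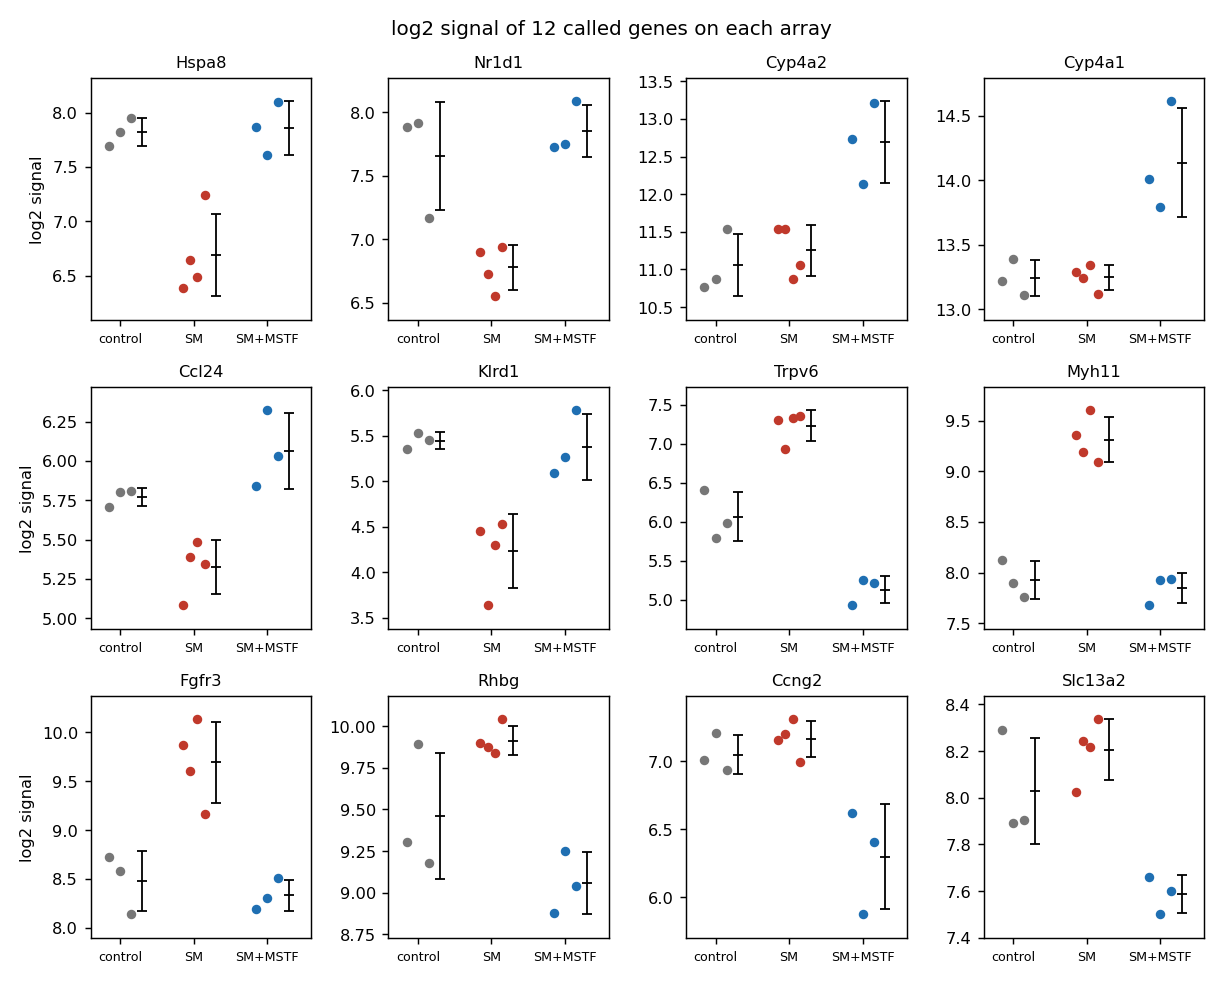
Log2 signal (vertical axis) of 12 called genes on each array, with 1 point per rat in control, SM and SM + MSTF and a bar for the mean ± SD of each group. Hspa8, Nr1d1, Ccl24 and Klrd1 were low in SM, Trpv6, Myh11 and Fgfr3 were high in SM, and Cyp4a1, Ccng2 and Slc13a2 separate SM + MSTF from SM while SM sits near control. Cyp4a2 also separates SM + MSTF from SM.

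Hspa8 was the 1 gene of the heat shock list with a called probe. It encodes the constitutive chaperone Hsc70, and 4 probes of it were tested. The probe with the largest difference read 6.39, 6.64, 6.49 and 7.24 in SM and 7.87, 7.61 and 8.10 in SM + MSTF, with controls at 7.69, 7.82 and 7.95. All SM arrays were below both other groups, and the SM + MSTF arrays lay over the control range. Hspa8 rose 2.25-fold on this probe (log2 1.17 ± 0.20 SE, limma adjusted p = 0.025), against a SM versus control difference of -1.13 (limma adjusted p = 0.0249). The other probes gave 0.94 (limma adjusted p = 0.0244), 0.82 (limma adjusted p = 0.0447) and 0.73 (limma adjusted p = 0.0617), the last being the brightest, and on these the SM versus control difference was -0.49, -0.49 and -0.46 with no call. The call of the probe with the largest difference was lost without SM replicate 1, 2 or 3 or without SM + MSTF replicate 1 or 3 (log2 1.05 to 1.35 over the leave-outs, limma adjusted p up to 0.0887). Hspa8 has processed copies in the genome, so its probes may read more than 1 locus.

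The rest of the chaperone list lay on both sides. Of 21 heat shock genes tested, 9 were higher and 12 lower, 0 were called on their brightest probe, and the median was -0.08. Bag3, the co-chaperone that binds Hsc70 and is itself a heat shock factor target, was 0.67 higher with groups that did not overlap (limma adjusted p = 0.0921), and Hsph1 was 0.17 higher (limma adjusted p = 0.649); both were chosen after their values were seen. The brightest members, the mitochondrial chaperones Hspd1 and Hspe1, differed by -0.06 and -0.27. The Hspa8 upstream window is shown because it holds the 3-unit heat shock element searched for, GAANNTTCNNGAA, on both strands of the window (chr8:50080264-50080513, plus strand, build GRCr8, 250 bases before the RefSeq start, 5′ to 3′, matches in capitals).
Hspa8: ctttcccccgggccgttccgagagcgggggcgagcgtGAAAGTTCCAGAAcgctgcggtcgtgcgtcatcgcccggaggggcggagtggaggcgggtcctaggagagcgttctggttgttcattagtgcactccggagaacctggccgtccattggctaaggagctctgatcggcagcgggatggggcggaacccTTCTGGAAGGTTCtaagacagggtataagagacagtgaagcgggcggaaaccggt
The matches lay at bases 213 to 201 before the start on the plus strand and 55 to 43 on the minus strand, and 0.663% of the 33469 upstream windows held at least 1. The Bag3 window held the shorter 2-unit form GAANNTTC at 132 to 125 bases before the start, a form contained in the longer motif and present in 7.23% of windows.

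Nr1d1, the clock repressor REV-ERB alpha, was the called gene of the circadian list. It read 6.90, 6.73, 6.55 and 6.94 in SM and 7.72, 7.75 and 8.09 in SM + MSTF, with controls at 7.89, 7.92 and 7.17. The SM arrays were below every control and every SM + MSTF array. Nr1d1 rose 2.11-fold (log2 1.07 ± 0.19 SE, limma adjusted p = 0.0312), against a SM versus control difference of -0.88 (limma adjusted p = 0.048), and its call was lost without any 1 of the 7 SM or SM + MSTF arrays (log2 0.96 to 1.14, limma adjusted p between 0.0504 and 0.0931). Its paralog Nr1d2, chosen after its values were seen, was 0.90 higher with no overlap between the groups (limma adjusted p = 0.159). Nr1d2 was well above background on 3 of the 4 SM arrays only. It thus entered the test through SM + MSTF, the group where it was higher, which favours a rise. Also named after their values were seen, the clock repressors Cry1, Cry2 and Per2 differed by -1.12, -0.85 and -1.03 (limma adjusted p = 0.0866, 0.152 and 0.384), and only Cry1 of these had groups that did not overlap. Of 15 clock genes tested, 3 were higher, 12 were lower and the median was -0.28. The labels give no hour of day for the sampling.

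The window before the downstream start of Nr1d1 is shown for its E-box CACGTG, the letters bound by CLOCK and BMAL1 (chr10:84229455-84229704, minus strand, build GRCr8, 250 bases before that RefSeq start, 5′ to 3′, E-box in capitals).
Nr1d1: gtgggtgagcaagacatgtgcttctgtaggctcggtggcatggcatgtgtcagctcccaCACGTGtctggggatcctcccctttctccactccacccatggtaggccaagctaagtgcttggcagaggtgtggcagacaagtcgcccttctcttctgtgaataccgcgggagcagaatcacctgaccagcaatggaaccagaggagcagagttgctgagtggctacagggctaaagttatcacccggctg
The E-box lay at bases 191 to 186 before the start, on both strands since it reads alike on each, and 5.59% of upstream windows held one. The window of the other Nr1d1 start, that of Nr1d2 and that of Ccl24 held none.

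Ccl24 and Klrd1 were the called genes of the chemokine and natural killer cell lists. Ccl24, the chemokine eotaxin-2, read 5.08, 5.39, 5.49 and 5.35 in SM and 5.84, 6.32 and 6.03 in SM + MSTF, with controls at 5.71, 5.80 and 5.81. It rose 1.67-fold (log2 0.74 ± 0.13 SE, limma adjusted p = 0.0324) and was the 1 gene called of 25 chemokine genes tested, of which 19 were higher (median 0.34). Klrd1, the CD94 chain of natural killer cell receptors, read 4.46, 3.64, 4.30 and 4.53 in SM and 5.09, 5.27 and 5.78 in SM + MSTF, with controls at 5.35, 5.54 and 5.46. It rose 2.22-fold (log2 1.15 ± 0.23 SE, limma adjusted p = 0.0443), although it was well above background on 2 of the 4 SM arrays only. Klrd1 thus entered the test through SM + MSTF, the group where it was higher, which favours a rise. Each of these calls was lost in 9 of the 10 leave-outs, with limma adjusted p up to 0.0888 for Ccl24 and 0.111 for Klrd1. The calls stayed without SM + MSTF replicate 1 for Ccl24 and without SM replicate 2 for Klrd1.

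Markers of immune cells are given beside these genes, since in bulk tissue fewer cells of a type and less RNA per cell cannot be told apart. Of the 11 natural killer cell markers tested, 9 were well above background on all 7 arrays. The others, Klrd1 among them, passed the filter in 1 group only. All 11 natural killer cell markers tested were higher (1 called, median 0.53), although Ncr1, Ncr3 and Tbx21 were not well above background on any array. The log2 of their summed signal ran from 10.16 to 11.65 in SM, from 10.68 to 11.92 in SM + MSTF and from 11.01 to 11.17 in the controls, so the groups overlapped. All 14 Kupffer cell and macrophage markers tested were higher (0 called, median 0.36), with the summed signal from 16.24 to 17.11 in SM, from 16.91 to 17.23 in SM + MSTF and from 16.82 to 17.17 in the controls. The per-array list medians against the SM mean were 0.30, 0.36 and 0.44 in SM + MSTF and -0.07, -0.31, 0.02 and 0.39 in SM. Marco, a scavenger receptor of Kupffer cells chosen after its values were seen, was 0.96 higher with no overlap (limma adjusted p = 0.146), and Clec4f, the brightest member, was 0.37 higher with overlap. All 6 monocyte and dendritic cell markers tested were higher (0 called, median 0.61), with Cx3cr1 and Xcr1 not well above background on any array and summed signals of 13.20 to 14.72 in SM and 14.06 to 14.82 in SM + MSTF. Hepatocyte markers (14 tested, median 0.00), endothelial markers (14 tested, median -0.03), T cell markers (9 tested, 3 higher and 6 lower, median -0.08) and neutrophil markers (5 tested, 2 higher and 3 lower, median -0.11) had 0 called. B cell and plasma cell markers were 3 higher and 3 lower, also with 0 called. How far cell makeup entered the called genes was not tested.

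Interferon-stimulated genes varied from rat to rat within each group. Isg15, an antiviral ubiquitin-like protein, read 12.15, 10.58, 14.42 and 15.72 in SM and 12.75, 14.29 and 16.92 in SM + MSTF, with controls at 13.99, 15.22 and 15.09. The SM arrays spanned more than the distance between the group means, and the difference of 1.43 ± 1.25 SE did not pass (limma adjusted p = 0.58). All 28 genes of the list were higher and 0 were called (1 at an unadjusted p under 0.05), with a median of 0.86. Of the 28, 26 were well above background on all 7 arrays. Per array the list median against the SM mean was -0.44, -1.25, 0.40 and 1.22 in SM and -0.07, 0.51 and 2.02 in SM + MSTF. Without SM + MSTF replicate 3 the median of the list was 0.34. Of the other members, chosen after their values were seen, Ifit1 was 2.29 higher (limma adjusted p = 0.339) and Mx1 1.77 higher (limma adjusted p = 0.379), both with overlapping groups. Ifit1 and Mx1 were each well above background on 3 of the 4 SM arrays only. They thus entered the test through SM + MSTF, the group where they were higher, which favours a rise.

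**Figure D3:**
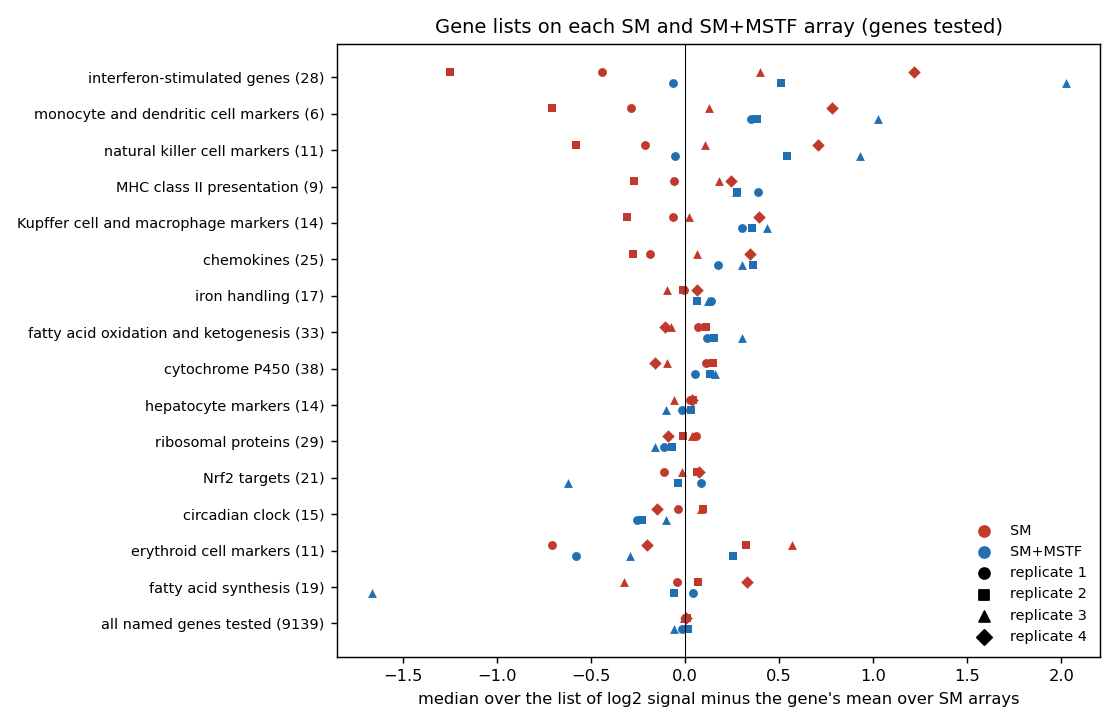
Median over each gene list of the log2 signal minus the gene's mean over the SM arrays (horizontal axis), for each SM (red) and SM + MSTF (blue) array, with the replicate given by the point's shape and the number of genes tested in brackets. Interferon-stimulated genes spread from -1.25 to 1.22 among the SM arrays alone, and fatty acid synthesis departs on SM + MSTF replicate 3 (-1.67).

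Hepcidin showed a large difference that did not pass the test. Hamp, the hormone that limits iron export from cells, read 14.94, 9.92, 12.33 and 12.08 in SM and 16.18, 16.46 and 16.52 in SM + MSTF, with controls at 10.83, 14.13 and 14.92. The SM + MSTF arrays lay together above all 7 others, while the SM and control arrays were widely spread. The log2 difference was 4.07 ± 1.16 SE (unadjusted p = 0.00595, limma adjusted p = 0.146); the gene was chosen after its values were seen. Of 17 iron-handling genes, 13 were higher, 0 were called and the median was 0.31. The BMP-responsive genes Id1 and Smad7, also chosen after, were 0.33 and 0.43 higher (limma adjusted p = 0.322 and 0.258), and the brightest members Tf and Hp differed by 0.10 and 0.02. Of 30 acute phase genes 25 were higher (0 called, median 0.12), and of 35 complement and coagulation genes 27 were higher (0 called, median 0.20).

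**Figure D4:**
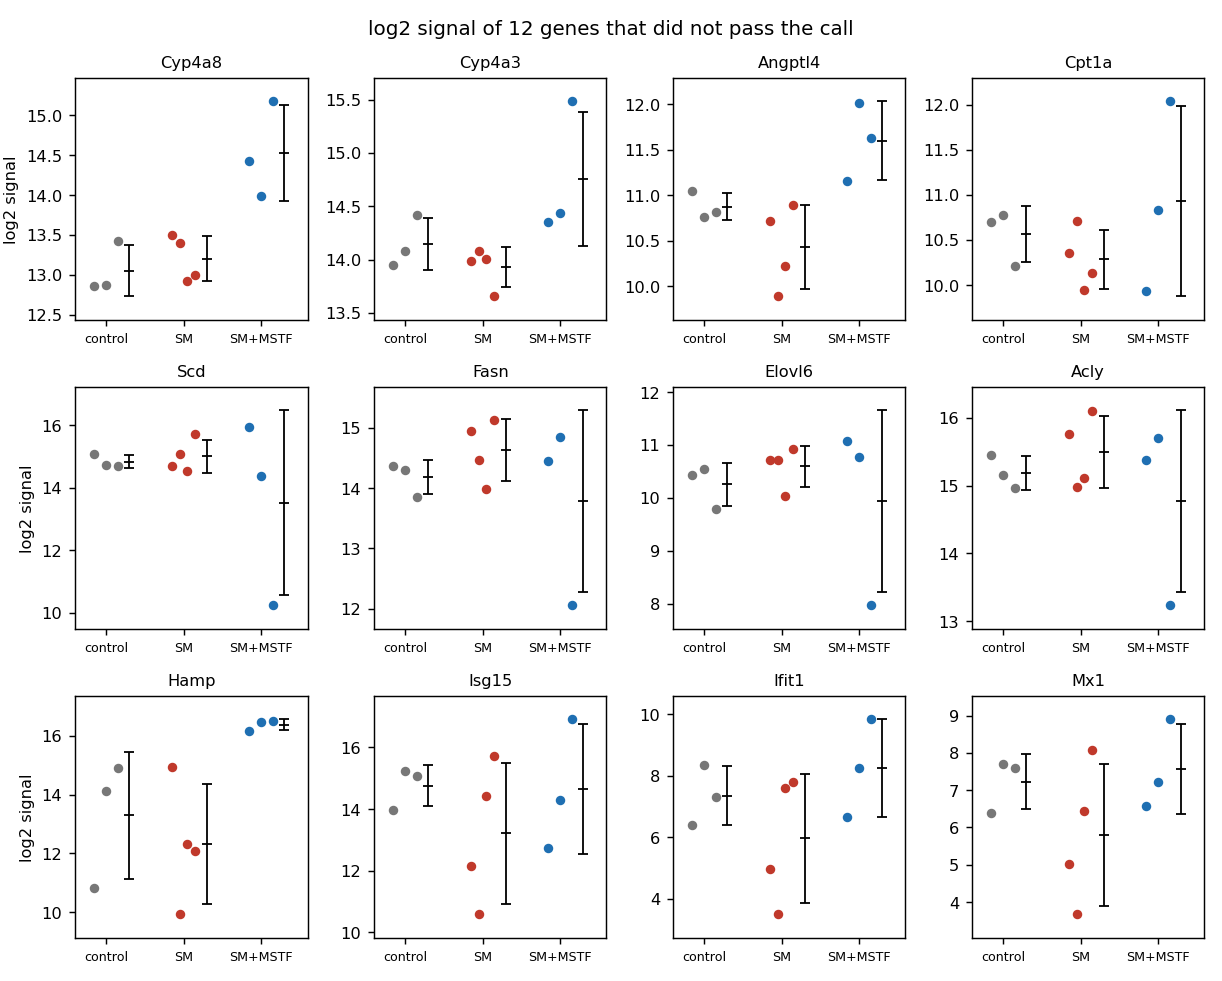
Log2 signal (vertical axis) of genes of lipid metabolism, iron handling and the interferon response on each array, with 1 point per rat in control, SM and SM + MSTF and a bar for the mean ± SD of each group. Hamp lies between 16.18 and 16.52 on the SM + MSTF arrays, Scd reads 10.23 on 1 SM + MSTF array, and Isg15 spreads from 10.58 to 15.72 within SM.

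The 3 largest called rises among named probes well above background on all 7 arrays were in class I histocompatibility genes of the RT1-CE group. RT1-CE16 read 12.77, 11.60, 12.20 and 12.66 in SM and 13.85, 13.97 and 14.14 in SM + MSTF, with controls at 13.23, 12.42 and 12.40. It rose 3.2-fold (log2 1.68 ± 0.29 SE, limma adjusted p = 0.0267), RT1-CE4 rose 3.42-fold (log2 1.77 ± 0.30 SE, limma adjusted p = 0.0244) and RT1-CE3 rose 2.96-fold (log2 1.57 ± 0.30 SE, limma adjusted p = 0.0363). On all 3 probes the SM versus control difference was smaller than the SM + MSTF versus SM difference (-0.38, -0.74 and -0.37) and was not called. The calls of RT1-CE4 and RT1-CE16 were lost without SM replicate 3 or any SM + MSTF array, and that of RT1-CE3 in 7 of 10 leave-outs (limma adjusted p up to 0.105 over the 3 genes).

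The RT1 genes are a polymorphic family, and probes of 1 gene differed. The other RT1-CE4 probe differed by 0.14 (limma adjusted p = 0.806), and of 32 RT1 probes tested 23 were higher, 9 lower, 3 called higher and 0 called lower, with a median of 0.29, where 0.311% and 0.96% of all tested probes were called higher and lower. Some RT1 probes split the rats across the groups by more than 4-fold. On RT1-Bb, 1 probe differed by -0.44 (limma adjusted p = 0.355) and showed no such split. The other RT1-Bb probe read 10.83, 2.22 and 2.33 in the controls, 9.80, 2.11, 2.62 and 2.44 in SM and 11.65, 11.17 and 10.95 in SM + MSTF. On it 1 control, 1 SM and all 3 SM + MSTF rats were high. The same rats were high on RT1-A3 (7.54, 3.55 and 2.33 in the controls, 6.99, 2.07, 2.02 and 2.12 in SM, between 7.23 and 8.11 in SM + MSTF) and on 1 unnamed probe. RT1-CE10 read 3.62 and 2.20 on SM + MSTF replicates 1 and 2 and between 8.29 and 10.18 on the other 8 arrays. None of the split probes was called by limma (adjusted p = 0.2, 0.181, 0.0905 and 0.233), and they were chosen after their values were seen. The split RT1-Bb probe and RT1-A3 were well above background on 1 of the 4 SM arrays only. They thus entered the test through SM + MSTF, the group where they were higher, which favours a rise. RT1-CE10 was well above background on 1 of the 3 SM + MSTF arrays only and entered through SM, which favours a fall. On the called RT1-CE4 probe control replicate 1 (9.98) and SM replicate 1 (9.31) were also highest in their groups. The next highest read 9.15 and 8.83. The same held for RT1-CE16 (13.23 and 12.77, next 12.42 and 12.66). On RT1-CE3 control replicate 1 was highest (11.25, next 10.69), but SM replicate 4 (10.98) lay above SM replicate 1 (10.85). How far this split entered the called rises was not tested. In SM + MSTF 4 of the 32 RT1 probes (12.5%), RT1-CE10 among them, ranged over 4-fold within the group, against 1.92% of all tested probes. In the controls and in SM 2 of the 32 (6.25%) did so in each, against 0.723% and 1.498%. In both groups these were RT1-A3 and the split RT1-Bb probe. Whether RT1 alleles differed between these outbred rats was not tested.

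**Figure D5:**
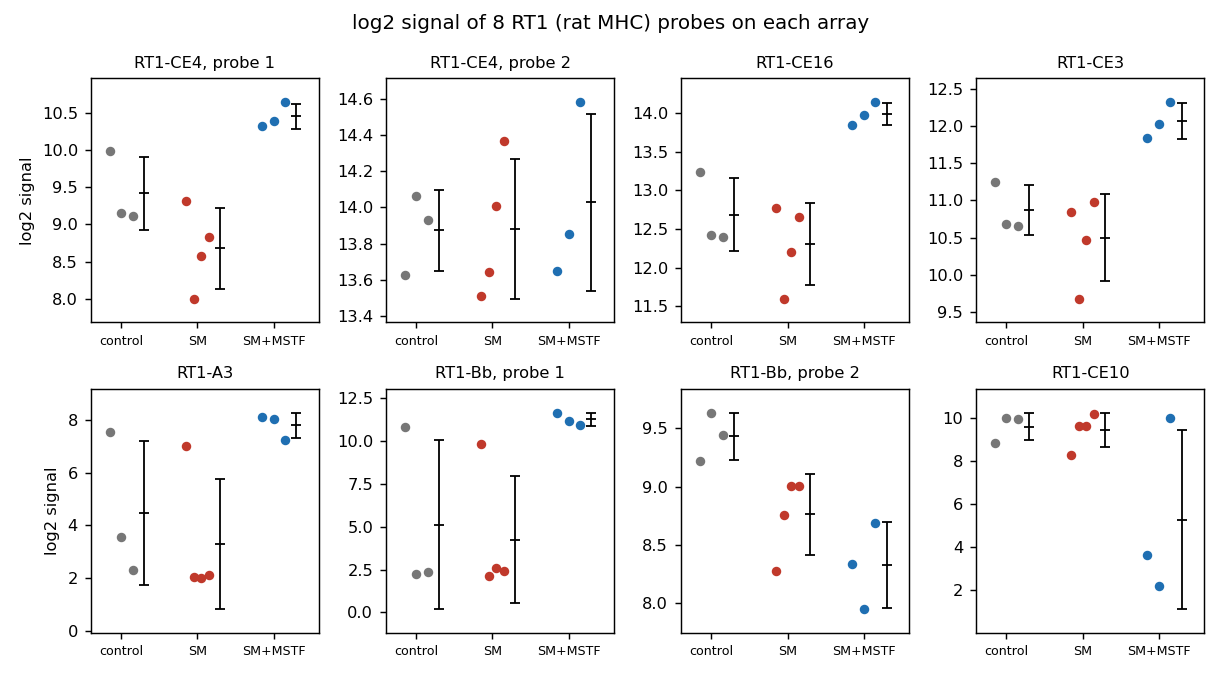
Log2 signal (vertical axis) of RT1 probes on each array, with 1 point per rat in control, SM and SM + MSTF and a bar for the mean ± SD of each group. RT1-A3 and 1 RT1-Bb probe are high in 1 control, 1 SM and all 3 SM + MSTF rats and low in the others. The other RT1-Bb probe shows no such split, and RT1-CE16 is highest on the 3 SM + MSTF arrays.

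Smaller rises were called in genes of other functions. Wdr43, a factor of small ribosomal subunit assembly, rose by 0.96 (limma adjusted p = 0.0282), Lipogenin by 0.99 (limma adjusted p = 0.0197) and Shank1, a synaptic scaffold protein, by 0.72 (limma adjusted p = 0.0455). Their SM versus control differences were -1.01, -0.87 and -0.98, all called. Wdr43 was the 1 called of 27 ribosome biogenesis genes (19 higher, median 0.13), while 22 of 29 ribosomal protein genes were lower (0 called, median -0.12). Leave-outs ended the call of Wdr43 in 7 of 10 cases, of Lipogenin in 4 and of Shank1 in 9, with limma adjusted p up to 0.144.

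The called falls, like the called rises, lay mostly among dim probes. Trpv6, an epithelial calcium channel, read 7.31, 6.93, 7.33 and 7.35 in SM and 4.93, 5.25 and 5.21 in SM + MSTF, with controls at 6.41, 5.80 and 5.99. The SM + MSTF arrays were below both other groups, and the fall was 4.29-fold (log2 -2.10 ± 0.17 SE, limma adjusted p = 0.000568). Myh11, the smooth muscle myosin heavy chain, read 9.35, 9.19, 9.60 and 9.09 in SM and 7.68, 7.93 and 7.94 in SM + MSTF, with controls at 8.13, 7.90 and 7.76. It fell 2.76-fold (log2 -1.46 ± 0.14 SE, limma adjusted p = 0.00221), but its other probe, which reads dimmer, differed by -0.57 ± 0.71 SE (limma adjusted p = 0.709). Elf2, an ETS transcription factor, fell on 1 probe from 8.07, 7.73, 7.70 and 7.92 in SM to 6.03, 6.01 and 5.98 in SM + MSTF (log2 -1.85 ± 0.12 SE, limma adjusted p = 0.000213). Its other 2 probes differed by 0.17 and 0.06 (limma adjusted p = 0.474 and 0.834), so that the fall was not one of the whole gene. Trpv6, Elf2, Myh11, Tmem104 and Neurod6 kept their calls when any single array was left out.

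Other called falls were in genes of varied roles. Fgfr3, a fibroblast growth factor receptor, read 9.87, 9.60, 10.13 and 9.17 in SM and 8.19, 8.30 and 8.50 in SM + MSTF, with controls at 8.73, 8.58 and 8.14 (log2 -1.36 ± 0.23 SE, limma adjusted p = 0.0225). Neurod6, a neuronal transcription factor, fell by 1.77, Hspb3, a small heat shock protein of muscle, by 1.42, and the membrane protein gene Tmem104 by 1.38 on the log2 scale. Bcl2l12, a relative of the apoptosis regulator Bcl2, fell by 1.34, Tmem164 by 1.20, Pgbd5, a domesticated transposase, by 1.13 and Fam107a, a stress-responsive actin-binding protein, by 1.09. All of these had limma adjusted p between 0.000534 and 0.0342 and SM + MSTF arrays below every SM array. Neurod6 and Tmem104 kept their calls in all 10 leave-outs, whereas Fgfr3 and Pgbd5 lost theirs in 4, Hspb3 and Fam107a in 5, Bcl2l12 in 7 and Tmem164 in 2 (limma adjusted p up to 0.0978). Among the gene lists, Rhbg, an ammonium transporter of pericentral hepatocytes, read 9.90, 9.87, 9.84 and 10.04 in SM and 8.88, 9.25 and 9.04 in SM + MSTF (log2 -0.86 ± 0.17 SE, limma adjusted p = 0.0423). Rhbg was the only called gene of 19 Wnt signalling and pericentral genes, which were 10 higher and 9 lower. Cldn18, a tight junction claudin, fell by 0.95 (limma adjusted p = 0.0328) in a list of 20 genes with 16 lower and a median of -0.06, and Cacna1e, a neuronal calcium channel, fell by 0.59 (limma adjusted p = 0.0342), while its other probe, not well above background in SM + MSTF, differed by -0.46 (limma adjusted p = 0.283). The calls of Rhbg, Cldn18 and Cacna1e were each lost in 8 of 10 leave-outs, with limma adjusted p up to 0.137.

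On most called probes SM differed from control in the opposite direction. Of the 71 rises 44, and of the 219 falls 135, were also called in SM versus control, where 2.28% of all tested probes were. The sign was opposite for 68 of the rises and all 219 falls. All 4 SM arrays lay on 1 side of the controls for 58 rises and 208 falls. Both comparisons use the SM arrays, which favours opposite signs. Few called genes had SM levels near those of the controls. The limma 95% interval of SM versus control lay within 1.5-fold in both directions for 12 of the 290 called probes, 4 higher and 8 lower, as it did for 60.6% of all 22824 tested probes. Of the 290, 27 probes that rose and 84 that fell were not called in SM versus control, and a missed threshold does not show that SM left them at the control level. Besides Cyp4a1, 4 named genes of this kind were well above background on all 7 arrays, and all 4 fell. Phyhip also met the interval, but it was not well above background on any SM + MSTF array. Ccng2, a cyclin of cell cycle exit, read 7.16, 7.20, 7.31 and 6.99 in SM, 6.62, 5.87 and 6.40 in SM + MSTF and 7.01, 7.20 and 6.93 in the controls. The SM and control arrays overlapped throughout and the SM + MSTF arrays lay below all of them, with a log2 difference of -0.87 ± 0.17 SE from SM (limma adjusted p = 0.0417). Slc13a2, a transporter of dicarboxylates and citrate, read 8.02, 8.24, 8.22 and 8.34 in SM, 7.66, 7.50 and 7.60 in SM + MSTF and 8.29, 7.89 and 7.91 in the controls. It fell by 0.62 on the log2 scale (limma adjusted p = 0.0455), and its other probe differed by -0.81 (limma adjusted p = 0.0566). Nes, the intermediate filament nestin, fell by 0.68 (limma adjusted p = 0.0351) and the olfactory receptor gene Or2w2 by 0.59 (limma adjusted p = 0.025). Or2w2 met the interval rule, but all 4 SM arrays (5.67 to 5.89) lay above the controls (5.36 to 5.48). Its SM versus control difference was 0.35. The calls of Ccng2, Slc13a2 and Nes were each lost in 9 of 10 leave-outs (limma adjusted p up to 0.133) and that of Or2w2 in 4 (up to 0.0944). SM + MSTF versus control gave no call for any of them, with log2 differences of -0.75 for Ccng2, -0.44 for Slc13a2, -0.40 for Nes, -0.25 for Or2w2 and 0.90 for Cyp4a1.

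Among the called probes, 36 of the 71 rises and 144 of the 219 falls were well above background on all 7 arrays. The same held for 20852 of the 22824 tested probes, a larger share than among the called rises or the called falls. The other called probes passed the filter in 1 group only. Some of them were measured in 1 of the groups only. Of the 71 rises, 22 were well above background on every SM + MSTF array and on no SM array, and of the 219 falls, 45 were well above background on every SM array and on no SM + MSTF array. For these the fold is a lower bound, the mean of the bright group over a floor for the dim group, which on each array was the weakest signal that counted as well above background, or the probe's own where higher. These probes entered the test through the group where they are bright, so they had to differ, and their values and p are a description. Ka11, a keratin, was at least 2.75-fold higher in SM + MSTF (limma adjusted p = 0.00608), Fap, a serine protease of activated fibroblasts, at least 1.96-fold (0.00334), Or8c17 at least 1.92-fold (0.0185) and Banp, a nuclear matrix protein, at least 1.61-fold (0.00643), all by limma. The dim-side genes in SM + MSTF were the olfactory receptor gene Or5p4, at least 4.27-fold lower (limma adjusted p = 0.0084), Anks6, a protein of cilia, at least 2.05-fold (0.00635), Or5w22 at least 1.82-fold (0.0125), the zinc finger gene Egr4 at least 1.78-fold (0.000556) and the homeobox gene Hoxd9 at least 1.76-fold (0.00387). Egr4 read 4.83, 5.15, 5.27 and 5.61 in SM against 2.72, 2.81 and 2.48 in SM + MSTF and 2.53, 3.01 and 2.39 in the controls, so that SM alone stood apart. Egr3, a relative of Egr4, was not well above background in SM + MSTF or the controls, and its bound allowed no fold. It was the only called of 22 genes tested from the immediate early list, which did not hold Egr4. Among these, Or8c17 lost its call without SM replicate 1, SM + MSTF replicate 1 or SM + MSTF replicate 2 (limma adjusted p up to 0.0678) and Or5w22 without SM replicate 1 (0.0506). Egr3 lost its call without SM replicate 1, SM replicate 3 or SM + MSTF replicate 1 (limma adjusted p up to 0.0658).

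Olfactory receptor genes, a group chosen after the values were seen, were mostly lower. Of 86 tested, 72 were lower and 14 higher, 10 were called lower and 1 higher, and the median was -0.51, where 0.897% and 0.175% of all named genes and 2.82% of the dimmest probes were called. Their median log2 signal in SM was 5.50 against 8.42 for other named genes, near the floor of the array, and 43 of the 86 were well above background on all 7 arrays. Of these 43, 33 were lower and 10 higher, 6 were called lower and 0 higher, and the median was -0.28, while the others passed the filter in 1 group only. Or10am5, the member with the largest fall among those well above background on all 7 arrays, read 6.53, 7.35, 6.47 and 6.35 in SM and 5.82, 5.42 and 5.22 in SM + MSTF, with controls at 5.38, 5.50 and 5.42 (log2 -1.19 ± 0.23 SE, limma adjusted p = 0.0435), and lost its call in 8 of 10 leave-outs (limma adjusted p up to 0.116). Their probes may bind transcripts of other family members and share the low signal, and the part that signal level or slide 2 played in them was not tested.

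The lists of antioxidant defence, DNA repair and cell death held no called gene. Bcl2l12, called lower above, was not on the apoptosis list. Of 21 Nrf2 targets, 15 were lower (0 called, median -0.17), and the list median was 0.09, -0.04 and -0.62 on the 3 SM + MSTF arrays. Of 26 glutathione genes 21 were lower (0 called, median -0.11), and of 17 antioxidant enzyme genes 11 were lower (0 called, median -0.06), with the brightest, Sod1 and Gpx1, not called. The 19 p53 targets had a median of 0.03, the 26 DNA repair genes -0.08 and the 27 apoptosis genes 0.01, each with 0 called. Erythroid markers were lower in 10 of 11 genes (0 called, median -0.27), with summed signals of 12.93 to 14.54 in SM and 13.05 to 14.24 in SM + MSTF.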

How the data were processed

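Total liver RNA of 10 rats was hybridised to 10 1-colour Agilent arrays. The authors deposited the scanner output, whose processed signal is a background-corrected intensity made with Feature Extraction 10.7.3.1, and a table of log2 values that they had quantile normalized. Here the deposited intensity was quantile normalized over the 10 arrays and taken as log2, control and non-uniform spots were left out, and spots of a probe were averaged. Probes well above background on every SM or every SM + MSTF array (22824 of 41012) were fitted with limma 3.58.1 in R 4.3.3 (lmFit and eBayes, 3 group means, 10 arrays) with Benjamini-Hochberg adjustment, and were called at an adjusted p under 0.05 and at least 1.5-fold. The number of arrays limits the precision. Replicates are separate rats.

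Gene names came from accessions matched to RefSeq, and 17512 probes had 1 gene name. Named genes are the 12 largest called rises and 12 largest called falls well above background on all 7 arrays with groups that do not overlap, up to 6 each way with SM near control under the same conditions, the 5 largest bounds each way, up to 4 called or the 2 brightest of each gene list, and Actb and Gapdh. The comparison and the 60 gene lists were chosen with earlier results of these data known, so list counts are descriptions. Alternatives were other scalings, filters, fits and blocks, the deposited log2 values, a t-test named in the methods, and leaving out each array. Replicate numbers were not used to pair the arrays, since the labels do not say that they pair the rats. The correlations of same-numbered arrays were 0.07, 0.11 and 0.05, and those of differently numbered arrays ran from -0.15 to 0.11. Values this small cannot exclude a pairing.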

Additional observations from a re-analysis of the deposited data

Results flagged for a closer look

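In 5 of the 64 sets of values examined in the SM group, 1 SM rat stood apart from the other SM rats, by a gap to its nearest neighbour that was a larger share of the group's range than Dixon's 95% critical value for 4 samples (about 1 group in 20 passes this by chance). The shares were 0.938 for Shank1, where SM replicate 2 was low at 7.14, 0.898 for Trpv6, where SM replicate 2 was low at 6.93, and 0.860 for Tmem164, where SM replicate 1 was high at 8.12. They were 0.962 for Gapdh, where SM replicate 4 was high at 15.95, and 0.846 for the per-array median of the hepatocyte markers, where SM replicate 3 was low at -0.06. In Trpv6 and Tmem164 the SM + MSTF arrays were still below all 4 SM arrays. The SM + MSTF and control groups of 3 arrays were too small for this comparison.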

How the results depend on the processing

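For each alternative the counts given are probes called, higher, lower, with SM near control, called list genes and named calls still made (290, 71, 219, 12, 11 and 41 in the report). No called value changed direction, but medians not tested changed sign over the alternatives for heat shock genes (-0.09 to 0.03), fatty acid synthesis (-1.67 to 0.01), G2/M genes (-0.63 to 0.34), hepatocyte markers (-0.10 to 0.05) and all named genes (-0.06 to 0.00). The cause of a moved count was not tested unless the alternative leaves fewer probes or arrays. Scaling to the 75th percentile gave 393, 58, 335, 19, 11 and 39, normexp background 60, 19, 41, 2, 0 and 11, no filter on dim probes 269, 74, 195, 9, 4 and 21, and probes well above background on all 7 arrays 152, 28, 124, 7, 6 and 23. The 7 arrays alone gave 155, 39, 116, 2, 2 and 19, array weights 385, 93, 292, 26, 12 and 38, and the slide as a random block 100, 26, 74, 1, 0 and 13. The replicate block gave 99, 48, 51, 2, 2 and 14, although the labels do not say that these numbers pair the rats. No fold minimum gave 313 probes, 26 of them with SM near control. An unadjusted p gave 1212, 464, 748, 63, 63 and 41. The methods' t-test gave 846, 276, 570, 52, 38 and 41 unadjusted and 13, 6, 7, 0, 0 and 3 after Benjamini-Hochberg. The deposited log2 values gave 295 probes, 288 of them shared with the report, and keeping non-uniform spots gave 290.

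Leaving out 1 array at a time gave 96 to 292 probes called, 28 to 89 higher, 68 to 241 lower, 0 to 31 with SM near control, 0 to 10 list genes and 15 to 30 named calls. Named calls lost were 26 without SM replicate 1 or 3, 25, 21 and 19 without SM + MSTF replicates 1, 2 and 3, and 11 to 13 without any other array. The separation of the 7 arrays was 0.0544 to 0.109, with exact permutation p from 0.0667 to 0.1 where 0.05 or 0.0667 is the smallest possible, and 0.0476 (p = 0.0571) over probes well above background on all 7 arrays. Only the SM + MSTF array of slide 1, chosen after seeing the data and assumed to vary like the other groups, gave 796, 417, 379, 300, 62 and 16. Leaving out population outlier spots, also chosen after seeing the data, gave 292. Low signal limits the dimmest probes, where a fold depends most on the background.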
